A study of Mus musculus with 10 samples.

Results

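The 35 genes described here are type I interferon response genes, a list of interferon-stimulated genes matched by symbol in the deposited table of read counts per gene. All 35 had a row and all 35 passed the expression filter, among 15767 genes tested of 55866 in the table. The list holds RNA and DNA sensors, transcription factors, antiviral effectors and 2 chemokines. The IRG and GBP families of GTPases were left out, although 1 listed gene, Ifi47, belongs to the IRG family.

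The 10 libraries hold polyadenylated RNA of iKCs, as the labels name this mouse cell line, which was the same throughout. The cells were treated with an LV vector, sorted on viability and on the fluorescent protein mOrange, and extracted without any interferon or other stimulus named in the labels. In 3 libraries the vector overexpressed miR-342-3p, and in 2 it carried a mutated form of this microRNA. In another 3 it carried a sponge for miR-342-3p, and in the last 2 a scramble control sponge. A microRNA is a short RNA that guides silencing of messenger RNAs with a matching site, and a sponge is a transcript whose binding sites sequester it. The mutated vector is the control for overexpression and the scramble sponge the control for the sponge. Libraries held 25712732 to 59259988 counts, and levels are given as CPM, the counts of a gene scaled to a common library total with TMM factors.

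Some facts of the whole series bear on all values. Reads over the Mir342 hairpin, which check the labels but do not measure the mature microRNA, stood at 8.22 to 11.3 CPM in the 3 overexpression libraries and at 2.86 and 3.22 CPM in the mutated control. Hairpin reads numbered 0 in each of the 5 libraries with a sponge or scramble vector, which allows up to 0.0518 to 0.0892 CPM (3 counts). Counts of sponge replicate 3 and of 1 scramble library stand in 1 field of the deposited table and were split, so that library is called the joined scramble library and the other the separate one. Overexpression replicate 1 and sponge replicate 3 stood apart in that short genes had higher and long genes lower counts than in their group mates, so results are also given without these 2 libraries.

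Type I interferons are secreted proteins that bind a receptor of the subunits IFNAR1 and IFNAR2. The receptor activates the kinases JAK1 and TYK2, which phosphorylate STAT2, and STAT2 joins IRF9 in the complex ISGF3. ISGF3 binds the interferon-stimulated response element in promoters of the genes listed here, and macrophages are known to transcribe many of them at a low tonic rate without infection.

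That element can be read in the promoters themselves. RefSeq promoter windows (GRCm38.p6, 250 bases before to 50 after the start, so 300 bases) were found for 25 of the 35 genes. The core GAAANNGAAA, or TTTCNNTTTC on the other strand, stood in the windows of 14 of these 25 genes (56%), against 3.99% of 27025 genes and 3.44% of 32851 windows with the same search. The stretches below show the core in 6 genes described further on, 5′ to 3′ on the gene's own strand. Every base of a core is in capitals (overlapping cores run together), and no base downstream of the start is shown.
Isg15 (chr4:156200865-156200906, minus strand): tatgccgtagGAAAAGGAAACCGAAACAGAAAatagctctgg
Ifit1 (chr19:34640775-34640823, plus strand): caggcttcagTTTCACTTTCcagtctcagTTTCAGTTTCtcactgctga
Bst2 (chr8:71537577-71537612, minus strand): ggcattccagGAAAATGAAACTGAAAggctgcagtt
Stat2 (chr10:128270266-128270295, plus strand): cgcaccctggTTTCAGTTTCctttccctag
Ifit3 (chr19:34583363-34583426, plus strand): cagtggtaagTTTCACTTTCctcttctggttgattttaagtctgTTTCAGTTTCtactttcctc
Ifit3b (chr19:34607759-34607822, plus strand): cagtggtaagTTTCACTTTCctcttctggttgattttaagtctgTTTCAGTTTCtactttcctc
Isg15 carried 3 overlapping cores that begin 78, 72 and 66 bases before its start, Ifit1 held 2 separate ones on the opposite strand, and the stretches of the neighbouring copies Ifit3 and Ifit3b were identical in 64 of 64 bases. The 11 genes with a window and no core included Irf7, Ifit2 and Ifi44, and that says only that these letters are not in those windows.

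The interferon response genes were transcribed in all 10 libraries, and the group that stood lowest was the mutated control. Per kilobase of exon, the antiviral membrane protein gene Bst2 had the highest level (mean of 788 CPM per kb over the 10 libraries), followed by Ifi27l2a (652 CPM per kb) and Isg15 (343 CPM per kb). The chemokine gene Cxcl9 (0.184 CPM per kb) and the DNA sensor gene Ifi205 (1.21 CPM per kb) had the lowest, and the other 30 lay between 11.6 and 154 CPM per kb. Summed over the 35 genes, the level was 9710 ± 224 CPM with overexpression (SD, n = 3), 8840 ± 244 CPM in the mutated control (SD, n = 2), 9983 ± 105 CPM with the sponge (SD, n = 3) and 10326 ± 6.31 CPM with the scramble control (SD, n = 2).

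Each library was also summarised by the median, over the 35 genes, of log2(CPM + 1) minus the gene's mean over the 10 libraries. This score was −0.16 and −0.11 in the mutated control, with only 3 and 6 of the 35 genes above their own mean. It was 0.068 in the joined and 0.10 in the separate scramble library, with 33 and 31 genes above their mean. The sponge libraries had scores of −0.0096, 0.055 and 0.024, and the overexpression libraries 0.056, −0.030 and −0.0056. Thus both mutated control libraries lay below the other 8, both scramble libraries above, and the overexpression and sponge libraries overlapped between them. Gene by gene, both mutated control libraries were below the other 8 for 20 of the 35 genes, against 6.34% of all genes tested, and both scramble libraries were above the other 8 for 6 of the 35 (Ifi205, Xaf1, Dhx58, Rsad2, Ifit3 and Ifit3b), against 1.34% of all genes. In RNA from bulk cells, fewer cells that express a gene and less RNA per cell cannot be told apart.

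**Figure D1:**
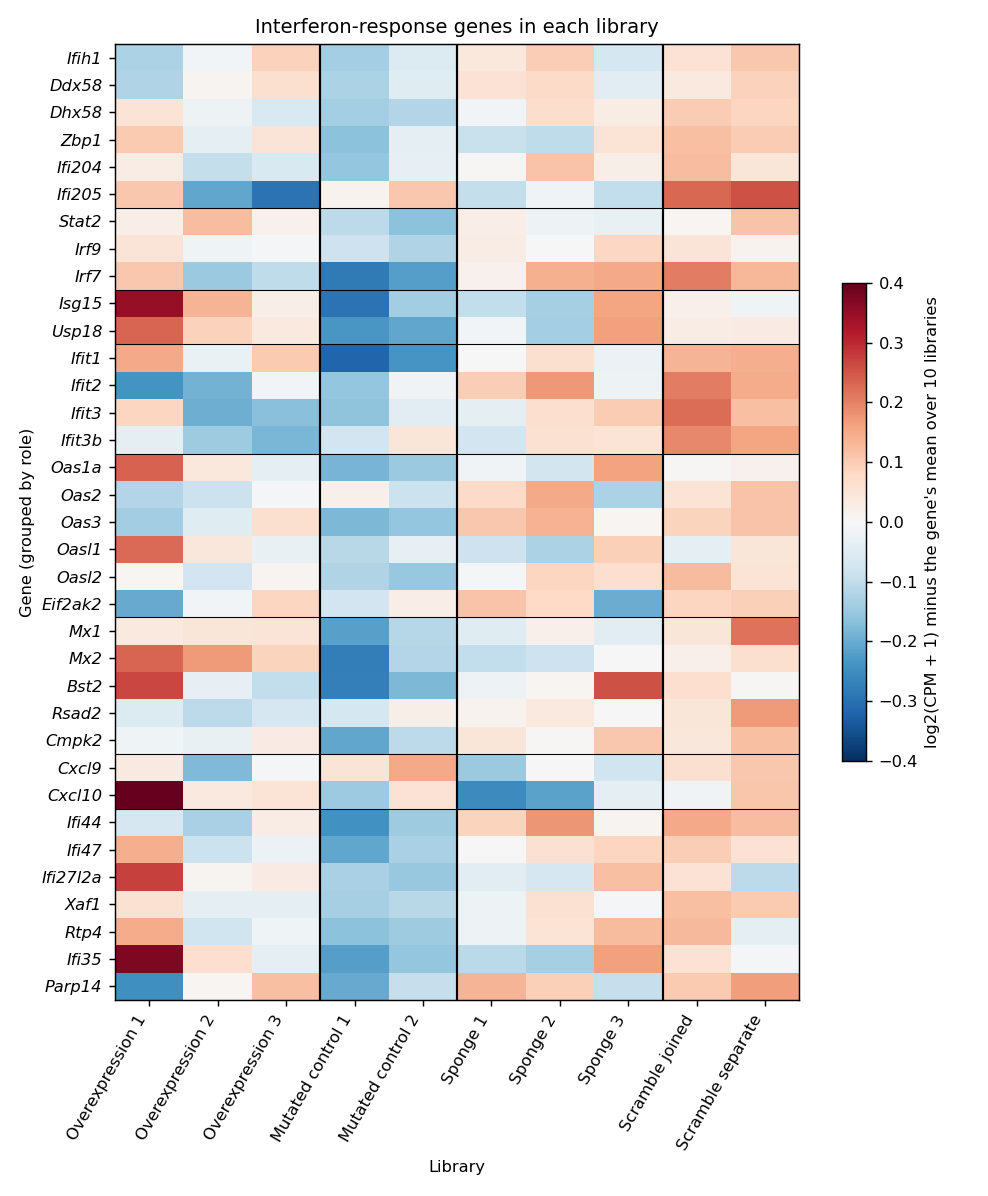
Each row is 1 of the 35 genes, grouped by role, and each column 1 of the 10 libraries; colour gives log2(CPM + 1) minus the gene's mean over the libraries, limited to 0.4 in either direction. The mutated control columns are blue for most genes (library scores of −0.16 and −0.11) and the scramble columns red (0.068 and 0.10), while within overexpression and within the sponge the columns differ from gene to gene.

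The mutated control was set against the scramble control first, because it frames the other comparisons. With the mutated control, 34 of the 35 genes had a log2 fold change below 0, where 49.5% of all genes did, and the median of the 35 was −0.21 against 0.0020 for all genes. The differences were small, from −0.42 for Irf7 to 0.026 for Cxcl9, the only one above 0. Groups did not overlap, with the mutated control lower, for 32 of the 35 genes and for 24.2% of all genes. At an unadjusted p under 0.05, 20 of the 35 were lower and 0 higher, against 3.65% of all genes lower. None of the 35 passed an adjusted p of 0.05 in edgeR or in limma-voom, which called 4 genes each in all (0.0254% of genes in edgeR); DESeq2 called 4 of the 35 (Ifi44, Ifit1, Irf7 and Mx1) among 90 genes. When only the 4 libraries of these groups entered the edgeR fit, 22 of the 35 were called among 574 genes. That fit took its spread from 2 libraries per group alone, among them the joined scramble library. Without overexpression replicate 1 and sponge replicate 3, 13 of the 35 were called among 271 genes. Leaving out these 2 libraries, which are outside the contrast, thus moved the count.

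Overexpression was then compared with its own control, the mutated vector. Here 28 of the 35 genes had a log2 fold change above 0, where 48.8% of all genes did, with a median of 0.14 against −0.0063 for all genes and a range from −0.39 (Cxcl9) to 0.39 (Isg15). For 21 genes the overexpression libraries lay above both mutated control libraries without overlap, against 18.9% of all genes. At an unadjusted p under 0.05, 13 were higher and 0 lower, against 9.11% of all genes higher. A single gene of the 35, Ifit1, passed the adjusted threshold in edgeR, where 0.539% of all genes (85) did. This comparison shares the mutated control libraries with the one before, so the same 2 libraries enter both.

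Overexpression was also set against the scramble control, which uses the libraries of both comparisons before. With overexpression, 26 of the 35 genes had a log2 fold change below 0, where 52.3% of all genes did, and the median was −0.091 against −0.010 for all genes. Overexpression lay below the scramble libraries without overlap for 15 genes, against 15.9% of all genes, and above them for 3 (Isg15, Usp18 and Mx2), against 15.1%. At an unadjusted p under 0.05, 7 genes were lower and 0 higher, against 7.12% of all genes lower. The values ran from −0.41 for Ifi205 to 0.17 for Isg15. None of the 35 passed the adjusted threshold in edgeR or limma-voom, which called 7 genes each (0.0444% of genes in edgeR), and DESeq2 called Ifit2 and Ifit3b among 234 genes.

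Sponge and scramble control had the smallest median difference of these 4 comparisons. With the sponge, 30 of the 35 genes had a log2 fold change below 0, where 50.7% of all genes did, the median was −0.058 and the 35 values ran from −0.45 (Cxcl9) to 0.050 (Bst2). The sponge libraries lay below both scramble libraries for 12 genes, against 8.3% of all genes. At an unadjusted p under 0.05, 3 genes were lower (Ifi205, Mx1 and Ifit3b) and 0 higher, against 1.62% of all genes lower. Adjusted p-values passed for 0 of the 35 in edgeR, limma-voom and DESeq2, and for 0% of all genes in edgeR.

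The test of whether overexpression and sponge had different effects, each against its own control, gave a difference above 0 for all 35 genes (50.1% of all genes), with a median of 0.19 against 0.00035. At an unadjusted p under 0.05, 12 were higher and 0 lower, against 4.24% of all genes higher. The gap between the 2 controls, with a median of −0.21 for mutated control minus scramble, enters this difference in full. The mean library score was 0.0069 with overexpression and 0.023 with the sponge. No member passed the adjusted threshold in edgeR, where 0% of all genes did, or in limma-voom, and DESeq2 called 2 among 48 genes. A test of any difference among the 4 groups had an unadjusted p under 0.05 for 19 of the 35 genes, against 16.1% of all genes, and called 0 of the 35 in edgeR and limma-voom after adjustment, against 0.419% of all genes in edgeR; DESeq2 called 7 among 849 genes.

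**Figure D2:**
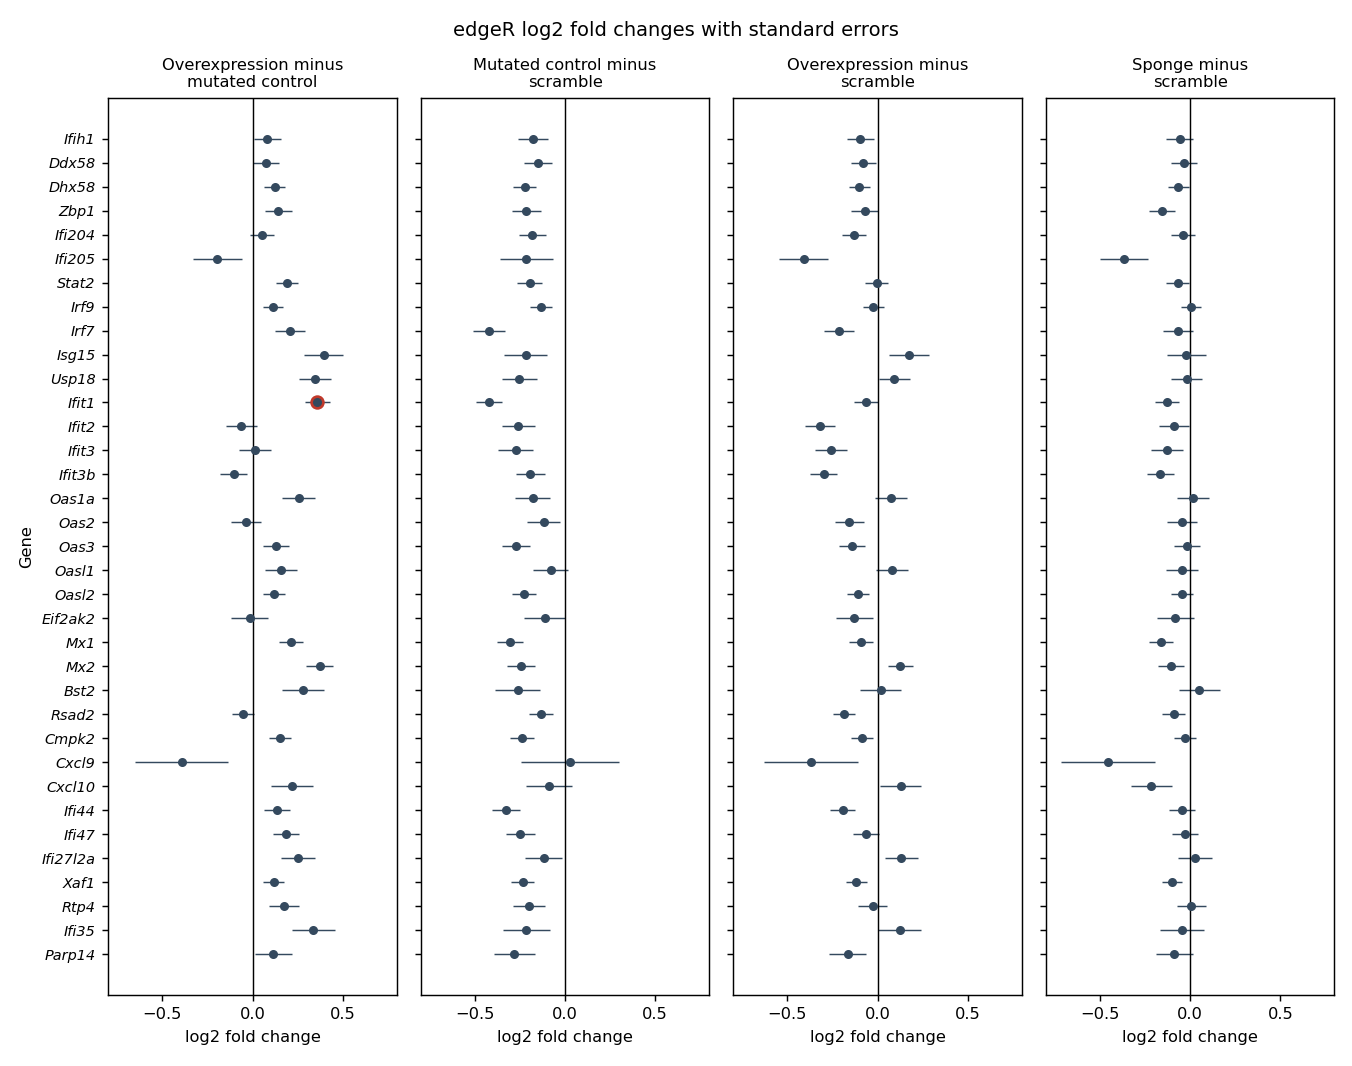
Points are edgeR log2 fold changes of the 35 genes in 4 comparisons, with bars of 1 standard error (SE). A larger red point marks an adjusted p under 0.05. Most points lie left of 0 for mutated control minus scramble (34 of 35) and right of 0 for overexpression minus mutated control (28 of 35). The single red point is on Ifit1.

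The IFIT proteins bind viral RNA and block its translation. Their genes lie in 1 cluster on chromosome 19, with Ifit1 at 34618271 to 34627409 on the plus strand in the coordinates of the deposited file. Ifit1, which recognises RNA that lacks the methylated cap of the host, had 101, 89.5 and 98.1 CPM with overexpression, 72.9 and 77.2 CPM in the mutated control, 91.2, 95.3 and 89.5 CPM with the sponge and 100.1 and 101 CPM with the scramble control. All 8 other libraries lay above both mutated control libraries; the scramble libraries and overexpression replicates 1 and 3 were the highest, and overexpression replicate 2 was the lowest of the 8. Group means were 96.3 ± 6.07 CPM with overexpression (SD, n = 3) and 75.1 ± 3.03 CPM in the mutated control (SD, n = 2). Ifit1 rose 1.28-fold between these groups, with a log2 fold change of 0.36 (SE 0.068) and an adjusted p of 0.0489 in edgeR. Against the scramble control the mutated control differed by −0.42 (SE 0.074), with an adjusted p of 0.125, and overexpression by −0.063 (SE 0.067). The call for overexpression against the mutated control was lost without overexpression replicate 1 (adjusted p = 0.0696) or 2 (0.0907), mutated control replicate 1 (0.45) or 2 (0.349), sponge replicate 1 (0.0955) or either scramble library (0.103 each), while the log2 fold change stayed between 0.32 and 0.42. It was also lost when only the 5 libraries of these groups entered the fit (adjusted p = 0.132) and held without both overexpression replicate 1 and sponge replicate 3 (0.32, adjusted p = 0.00475).

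None of the other 3 IFIT genes was called, and whether they differ from Ifit1 in their response was not tested. Ifit2 had 358, 371 and 420.3 CPM with overexpression, 380.2 and 419 CPM in the mutated control, 453, 478 and 417 CPM with the sponge and 488 and 469 CPM with the scramble control. Overexpression and the mutated control overlapped there, and both lay below the 2 scramble libraries. Mutated control minus scramble was −0.26 (SE 0.093) and overexpression minus scramble −0.32 (SE 0.085), with adjusted p-values of 0.647 and 0.198. Ifit3b had 34.2, 31.7 and 30.8 CPM with overexpression, 33.2 and 36.3 CPM in the mutated control, 33.2, 36.6 and 36.5 CPM with the sponge and 40.2 and 39.3 CPM with the scramble control. Both scramble libraries were above the other 8, and overexpression differed from them by −0.30 (SE 0.074) with an adjusted p of 0.184. Its near-identical neighbour Ifit3 had log2 fold changes of −0.26 in the same comparison and 0.014 for overexpression minus mutated control; counts of the 2 copies are uncertain because reads from shared sequence can be split or dropped between them.

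ISG15 is a ubiquitin-like protein that is attached to other proteins and also secreted, and USP18 removes it and damps signalling at the interferon receptor. Isg15, at chromosome 4 from 156283912 to 156285253, minus strand, had 305, 263 and 243 CPM with overexpression, 195 and 218 CPM in the mutated control, 224, 218 and 267 CPM with the sponge and 243 and 237 CPM with the scramble control. The mutated control libraries were the lowest 2 of the 10, and overexpression replicate 1 was the highest. Overexpression minus mutated control was 0.39 (SE 0.11), the highest of the 35 genes, with an adjusted p of 0.132, which does not pass the threshold. Usp18 had 273, 247 and 239 CPM with overexpression, 197 and 201 CPM in the mutated control, 231, 211 and 260.3 CPM with the sponge and 237 and 238 CPM with the scramble control. Again the mutated control was lowest and overexpression replicate 1 highest, with overexpression minus mutated control at 0.35 (SE 0.088) and an adjusted p of 0.109. Usp18 shares 124 exonic bases with Gm44148 on the opposite strand, and strand was not used in counting.

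Among the transcription factors, all 3 genes had a log2 fold change above 0 for overexpression minus mutated control and below 0 for mutated control minus scramble. Irf7, the factor that amplifies interferon gene transcription, had 621, 521 and 537 CPM with overexpression, 474 and 495 CPM in the mutated control, 584, 637 and 641 CPM with the sponge and 666 and 633 CPM with the scramble control. Its mutated control libraries were lowest, and the overexpression libraries lay below both scramble libraries but overlapped with the sponge. Mutated control minus scramble was −0.42 (SE 0.091), the lowest of the 35 genes, with an adjusted p of 0.205. Stat2, the STAT that carries the transactivation domain of ISGF3, had 464, 497 and 462 CPM with overexpression, 425 and 407 CPM in the mutated control, 465, 450.0 and 447 CPM with the sponge and 459 and 494 CPM with the scramble control. Overexpression minus mutated control was 0.19 (SE 0.063) with an adjusted p of 0.173, and mutated control minus scramble −0.20 (SE 0.069) with an adjusted p of 0.625. Irf9, the DNA-binding partner in ISGF3, differed by 0.11 and −0.13 in these 2 comparisons.

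**Figure D3:**
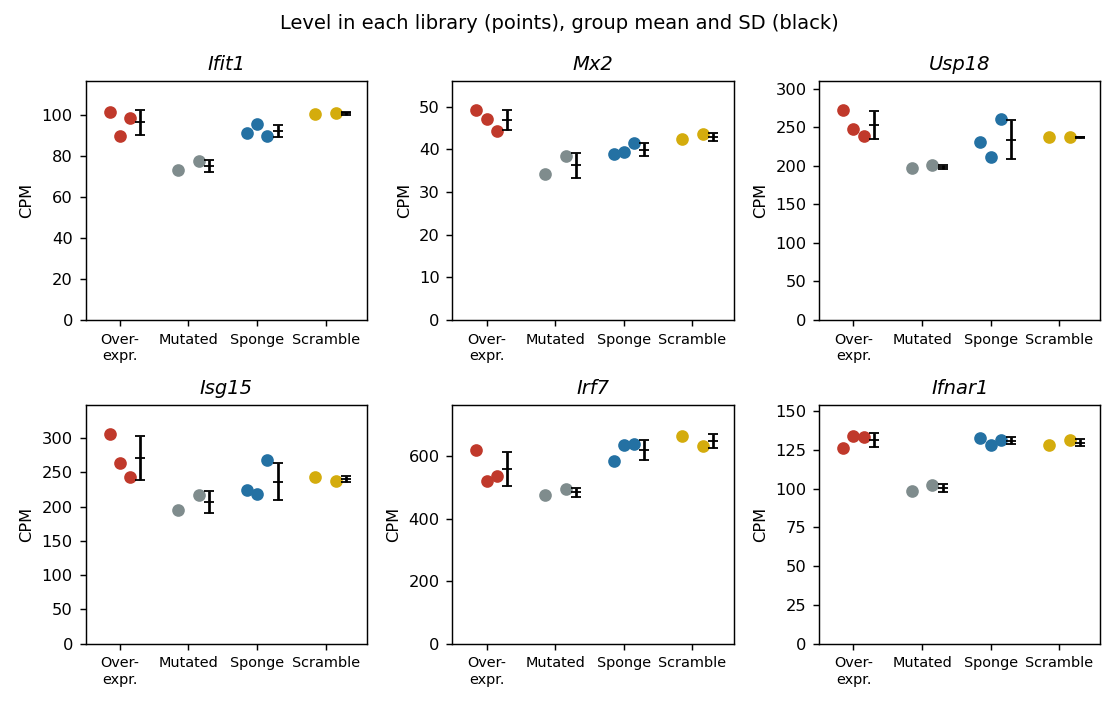
Points are CPM in each library for 5 interferon response genes and for the receptor subunit gene Ifnar1, with the group mean and SD in black beside them; axes start at 0. In all 6 panels both mutated control libraries lie below the other 8, for example at 72.9 and 77.2 CPM for Ifit1 and 98.4 and 102 CPM for Ifnar1.

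The restriction factors gave 4 of 5 genes above 0 for overexpression minus mutated control, and 5 of 5 below 0 for mutated control minus scramble. Mx1 and Mx2, neighbouring genes on chromosome 16, encode dynamin-like GTPases that block viral nucleocapsids. Mx2 had 49.1, 47.1 and 44.4 CPM with overexpression, 34.2 and 38.4 CPM in the mutated control, 38.9, 39.3 and 41.6 CPM with the sponge and 42.3 and 43.6 CPM with the scramble control. Overexpression was highest and the mutated control lowest, each without overlap with the other groups, and overexpression minus mutated control was 0.37 (SE 0.072) with an adjusted p of 0.0524, just short of the threshold. Mx1 had 139, 139.6 and 139.9 CPM with overexpression, 116 and 125 CPM in the mutated control, 131, 137 and 131 CPM with the sponge and 139.7 and 157 CPM with the scramble control. The mutated control was lowest and the separate scramble library highest, and the other 7 lay within 131 to 140 CPM. Overexpression minus mutated control was 0.21 (SE 0.066) for Mx1, with an adjusted p of 0.153.

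Bst2, or tetherin, holds budding virions at the membrane and had 852, 691 and 661 CPM with overexpression, 585 and 625 CPM in the mutated control, 697, 712 and 844 CPM with the sponge and 742 and 709 CPM with the scramble control. The 2 highest values were those of overexpression replicate 1 and sponge replicate 3, and the mutated control was lowest. Overexpression minus mutated control was 0.28 (SE 0.11) with an adjusted p of 0.241; without those 2 libraries it was 0.16 with an adjusted p of 0.103. Rsad2, or viperin, makes a chain-terminating nucleotide and had 487, 471 and 483 CPM with overexpression, 481 and 514 CPM in the mutated control, 511, 520.1 and 506 CPM with the sponge and 523 and 569 CPM with the scramble control. Its scramble libraries were the highest 2, overexpression lay below them at −0.19 (SE 0.061) with an adjusted p of 0.274, and overexpression minus mutated control was −0.052. Cmpk2, its neighbour on chromosome 12 and a nucleotide kinase, differed by 0.15 from the mutated control, which had the lowest 2 libraries.

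Many proteins of the OAS family, but not all, sense double-stranded RNA and make 2-5A, the activator of RNase L. PKR (Eif2ak2) halts translation on the same trigger. Oas1a (0.25), Oasl1 (0.16), Oas3 (0.13) and Oasl2 (0.12) had log2 fold changes above 0 for overexpression minus mutated control. Those of Oas2 (−0.037) and Eif2ak2 (−0.016) were below 0 and smaller than their SE. All 6 were below 0 for mutated control minus scramble, from −0.27 (Oas3) to −0.080 (Oasl1), and 2 of them at an unadjusted p under 0.05. Oas1a has several close paralogs, so its count is uncertain to the extent that reads are shared.

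The sensors gave 5 of 6 genes above 0 for overexpression minus mutated control, none at an unadjusted p under 0.05. The RNA helicase genes Ifih1 (MDA5), Ddx58 (RIG-I) and Dhx58 (LGP2) differed by 0.082, 0.074 and 0.12. Zbp1, which binds Z-form nucleic acid, and Ifi204, a DNA sensor, differed by 0.14 and 0.052. Ifi205, a relative of Ifi204, had 5.47, 4.20 and 3.89 CPM with overexpression, 5.06 and 5.47 CPM in the mutated control, 4.62, 4.94 and 4.62 CPM with the sponge and 6.04 and 6.16 CPM with the scramble control. Overexpression replicate 1 stood with the mutated control there and replicates 2 and 3 lower, and overexpression minus scramble was −0.41 (SE 0.13) with an adjusted p of 0.274. For mutated control minus scramble, all 6 sensors were below 0, from −0.22 to −0.15.

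The remaining effectors and the chemokines completed the list. Ifi27l2a, which encodes a small membrane protein, had 364, 303 and 307 CPM with overexpression, 275 and 271 CPM in the mutated control, 291, 287 and 327 CPM with the sponge and 313 and 279 CPM with the scramble control. Overexpression minus mutated control was 0.25 (SE 0.094) with an adjusted p of 0.209, and overexpression replicate 1 and sponge replicate 3 were the highest 2 libraries. Ifi44 had 199.5, 191 and 213 CPM with overexpression, 177 and 189 CPM in the mutated control, 222, 236 and 211 CPM with the sponge and 232 and 228 CPM with the scramble control. Its mutated control libraries were lowest, at −0.33 (SE 0.077) against scramble with an adjusted p of 0.266, and overexpression lay below scramble as well (−0.19). The other 5 of this group, Ifi35 (0.34), Ifi47 (0.19), Rtp4 (0.17), Xaf1 (0.12) and the ADP-ribosyltransferase gene Parp14 (0.12), were above 0 for overexpression minus mutated control and between −0.28 and −0.20 for mutated control minus scramble.

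Cxcl10 and Cxcl9 encode ligands of CXCR3, a chemokine receptor of T cells. Cxcl10 had 210.2, 164 and 165 CPM with overexpression, 144 and 166 CPM in the mutated control, 133, 137 and 155 CPM with the sponge and 157 and 172 CPM with the scramble control. Overexpression replicate 1 was the highest library while replicates 2 and 3 overlapped with the mutated control, and overexpression minus mutated control was 0.22 (SE 0.12). Cxcl9, induced mainly by interferon gamma, stayed between 0.373 and 0.726 CPM in the 10 libraries, and its overexpression minus mutated control value was −0.39 (SE 0.26). Neither chemokine gene had an unadjusted p under 0.05 in that comparison.

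Exonic length separated the genes within groups. In overexpression replicate 1, the deviation of the 35 genes from their group mean was lower the longer the gene (on log2 exonic length, Pearson r = −0.70 over 35 genes, and −0.59 over the 10320 better expressed genes). In replicates 2 and 3 it went the other way (0.36 and 0.65). Sponge replicate 3 (−0.73) was opposite to sponge replicates 1 and 2 (0.57 and 0.52), and the mutated control libraries showed little of it (0.14 and −0.14). The joined and the separate scramble library mirrored each other at −0.45 and 0.45 (−0.33 and 0.33 over the 10320 genes), as the deviations of 2 libraries from their mean must. Deviations within a group of 3 libraries also balance, so a fall in 1 library goes with a rise over its group mates together. These are descriptions of genes that share a library, so they carry no p.

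The comparisons were read with that in view. For overexpression minus mutated control, the median was 0.21 over the 17 shorter genes (up to 3529 bases), with 15 above 0, and 0.11 over the 18 longer ones (from 3561 bases), with 13 above 0. For overexpression minus scramble the medians were −0.028 and −0.13, with 8 shorter genes and 1 longer gene above 0. For mutated control minus scramble they were −0.21 and −0.22, thus nearly equal. Over the 10320 better expressed genes, the log2 fold change correlated with length at r = −0.33, −0.20 and 0.24 in these comparisons, in that order. After a correction for length within each library, chosen after seeing the data, the medians over the 35 genes were 0.12, −0.11 and −0.19 in these 3 comparisons. Those over all genes were then −0.032, −0.020 and 0.013. That correction called Isg15, Mx2 and Usp18 for overexpression minus mutated control among 295 genes, and not Ifit1 (0.27, adjusted p = 0.0694). Leaving out overexpression replicate 1 and sponge replicate 3 gave medians of 0.12, −0.094 and −0.22 and called 8 of the 35 genes for overexpression minus mutated control (Ifi35, Ifit1, Isg15, Mx1, Mx2, Parp14, Stat2 and Usp18) among 756 genes.

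**Figure D4:**
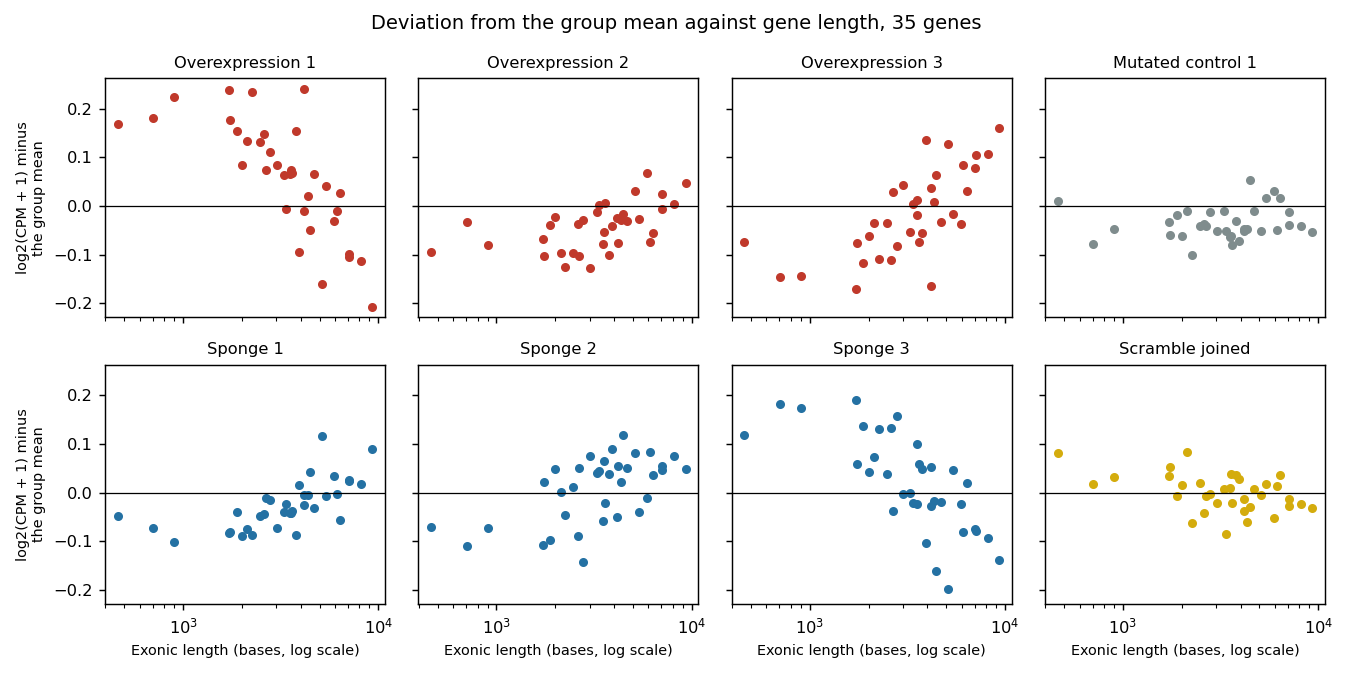
Each panel is 1 library and each point 1 of the 35 genes, with exonic length in bases on a log axis and the deviation of log2(CPM + 1) from the group mean upward. The cloud falls in overexpression replicate 1 (r = −0.70) and sponge replicate 3 (r = −0.73) and rises in the other overexpression and sponge libraries. Deviations within a group balance, so the fall in 1 library and the rise in its group mates are not independent. For the 2-library groups 1 library each is shown, since the other mirrors it.

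Upstream of these genes, the ligands were scarce. Ifnb1, which encodes interferon beta, had 0.194 to 0.743 CPM (201 counts in all 10 libraries), and its overexpression minus mutated control value of 0.56 (SE 0.43) was within 2 SE of 0. Of the other 9 ligand genes looked up, Ifna1, Ifne, Ifnl2, Ifnl3 and Ifng had 0 counts, and Ifna2, Ifna4, Ifna5 and Ifnk had 2 to 9 counts over all libraries. No ligand gene besides Ifnb1 passed the expression filter.

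The receptor subunit gene Ifnar1, which is not among the 35, was lowest in the mutated control. At chromosome 16 from 91282126 to 91304329, plus strand, it had 126, 134 and 133 CPM with overexpression, 98.4 and 102 CPM in the mutated control, 133, 128 and 131 CPM with the sponge and 128 and 131 CPM with the scramble control. The 8 other libraries lay within 126 to 134 CPM, and both mutated control libraries were below them. Ifnar1 was higher with overexpression (131 ± 4.54 CPM, SD, n = 3) than in the mutated control (100.3 ± 2.71 CPM, SD, n = 2), with a log2 fold change of 0.39 (SE 0.057) and an adjusted p of 0.0221 in edgeR. The test of any difference among the 4 groups called it too (adjusted p = 0.0399). Mutated control minus scramble was −0.37 (SE 0.062) with an adjusted p of 0.116, and overexpression minus scramble 0.016 (SE 0.057). The call against the mutated control was lost without overexpression replicate 2 (adjusted p = 0.114), mutated control replicate 1 (0.327) or 2 (0.264), or the joined (0.0606) or separate (0.0608) scramble library, and the call over 4 groups without any 1 of these or without sponge replicate 1 (0.118) or 2 (0.0624). The call against the mutated control was also lost when only the 5 libraries of these groups entered the fit (0.39, adjusted p = 0.101), and it held without both overexpression replicate 1 and sponge replicate 3 (0.42, adjusted p = 0.000226).

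No other gene of the receptor and JAK-STAT list was called. Ifnar2, the other receptor subunit, differed by −0.023 (SE 0.070) between overexpression and mutated control and by 0.045 (SE 0.077) between mutated control and scramble. Of the 9 genes of this list, all tested, 1, Ifnar1, was called for overexpression minus mutated control (0.539% of all genes) and by the test of any difference (0.419% of all genes), and 0 in the other contrasts.

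The list for the pathway that induces interferon held 23 genes, among them relatives of Ifi204 (Ifi203, Ifi207, Ifi209, Ifi211, Ifi213 and Mndal). Of the 23, 11 were above and 12 below 0 for overexpression minus mutated control, and 18 were below 0 for mutated control minus scramble. None of the 23 was called. Irf3, the factor that starts interferon beta transcription, differed by 0.074 (SE 0.093) and −0.091 (SE 0.10) in these comparisons, and Irf1 by 0.075 (SE 0.079) and −0.082 (SE 0.086). Of 10 feedback genes 9 were tested and none was called; Socs1, an inhibitor of JAK kinases, stood at 3.36 to 5.30 CPM and differed by 0.21 (SE 0.15) between overexpression and mutated control. Of 6 genes tied to interferon gamma 5 were tested and none was called.

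A further list of 42 interferon-induced genes outside the 35, chosen like the 35 with earlier results of these data known, had 40 genes tested. For mutated control minus scramble, 37 of the 40 were below 0 (49.5% of all genes), with a median of −0.18, and 16 were lower (3.65% of all genes) and 0 higher at an unadjusted p under 0.05. For overexpression minus mutated control, 28 were above 0 (48.8% of all genes), with a median of 0.054. At that level 7 were higher (9.11% of all genes) and 2 lower (another 9.11%). For overexpression minus scramble, 35 of the 40 were below 0 (52.3% of all genes), with a median of −0.090. There 11 were lower (7.12% of all genes) and 1 higher (6.25%) at an unadjusted p under 0.05. None of the 40 was called in any comparison by edgeR after adjustment. The schlafen gene Slfn5 had 5.01, 5.67 and 4.32 CPM with overexpression, 2.94 and 3.68 CPM in the mutated control, 3.45, 2.56 and 3.37 CPM with the sponge and 3.66 and 3.68 CPM with the scramble control, and the torsin gene Tor3a 348, 336 and 311 CPM with overexpression, 265 and 283 CPM in the mutated control, 294, 277 and 327 CPM with the sponge and 311 and 313 CPM with the scramble control. For both genes all overexpression libraries were above both mutated control libraries, by 0.61 (SE 0.17) and 0.28 (SE 0.079), with adjusted p-values of 0.125 and 0.137.

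Sites for the microRNA itself were looked up in the genes' 3′ UTRs. The mature miR-342-3p (RefSeq, GRCm38.p6, chr12:108658680-108658702, plus strand) is shown with its seed, bases 2 to 8, in capitals, followed by the 8mer sites of 3 of the 35 genes and the site of Ifit3b, with the bases that pair with the seed, and the A after them in an 8mer, in capitals.
miR-342-3p: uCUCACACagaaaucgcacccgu
Rsad2 site: cacaggaggtGTGTGAGAtctctgtgc
Oasl1 site: gtcagaggggGTGTGAGAagtcgtgta
Cxcl9 site: ctaattgtatGTGTGAGAggtagaaag
Ifit3b site: ggctgtgtgtGTGTGAGtgtgtgtgtg
Taking 1 3′ UTR per gene, the longest in GENCODE vM21, the match GTGTGAG was found in 8 of the 35 genes (22.9%), against 12.9% of 20998 genes. The other 5 matches without the final A of an 8mer were in Cmpk2, Ifit3b, Oas1a, Oas2 and Parp14. For overexpression minus mutated control, the 8 genes with a site had a median of 0.039, with 4 above and 4 below 0, and the 27 without one had a median of 0.14, with 24 above 0. For sponge minus scramble the medians were −0.067 and −0.058. Between the 2 controls, for mutated control minus scramble, they were −0.16 with a site and −0.22 without one. Whether the genes with and without a site differ was not tested. Ifit1, Isg15, Usp18, Mx2 and, outside the list, Ifnar1 had no such site. A match is a description of letters, and whether miR-342-3p acts on it was not measured here.

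Markers of cell type were read from short lists. All 10 macrophage markers passed the filter, with a summed level of 5737 to 6332 CPM with overexpression, 6210 to 6652 CPM in the mutated control, 6297 to 6976 CPM with the sponge and 6449 to 6914 CPM with the scramble control. Single markers differed in sign for overexpression minus mutated control: Cd14 was at −0.38 (SE 0.13) and Lyz2 at −0.32 (SE 0.13), with adjusted p-values of 0.172 and 0.253 in edgeR, and Itgam was at 0.25 (SE 0.080) with an adjusted p of 0.159 and its lowest 2 libraries in the mutated control. The line lacked reads of 3 defining Kupffer cell markers, Clec4f, Timd4 and C6, and 6 of that list's 10 genes passed the filter at a sum of 13.9 to 18.3 CPM. Of 6 plasmacytoid dendritic cell markers 3 passed, and their sum, mostly Bst2, which is among the 35 genes, was 772 to 811 CPM in the mutated control and 836 to 1014 CPM in the other 8 libraries. Tcf4, the other abundant gene of that list, differed by −0.19 (SE 0.098) between overexpression and mutated control, opposite in sign to Bst2. Siglech, which defines those cells, had 19 counts in all libraries.

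Also the sums of the liver endothelial and hepatocyte lists separated the mutated control from the other 8 libraries. The liver endothelial list (6 genes, Clec4g at 0 counts) summed to 28.8 and 31.1 CPM in the mutated control and 21.2 to 25.1 CPM in the other 8 libraries, mostly from Kdr (26.0 ± 1.49 CPM, SD, n = 2, against 17.7 to 20.9 CPM in the others). Kdr was called for overexpression minus mutated control, at −0.47 (SE 0.080) with an adjusted p of 0.0352 in edgeR (0.539% of all genes). The hepatocyte list (7 genes, Ttr and Serpina1c at 0 counts, 1 gene tested) summed to 39.7 and 42.9 CPM against 47.0 to 57.4 CPM, nearly all from Ass1. Both mutated control libraries were below the other 8 for 6.34% of all genes tested. Stellate, lymphocyte and neutrophil or erythroid lists summed to at most 2.19 CPM in every library, with Lrat, Cd3e, Nkg7 and Hbb-bs at 0 counts. The part of other cell types in the differences described was not tested, beyond these sums.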

How the data were processed

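Per the file headers, the authors counted read pairs per gene with featureCounts 2.0.1 against GENCODE vM30, by gene name, with a minimum overlap of 10 bases and strand setting 0. The deposited counts are whole numbers with no normalization. STAR 2.7.6a, the build GRCm38, Trimmomatic and FastQC 0.11.6 are named per the submitters' processing notes. The vM30 annotation belongs to a later build, so gene coordinates are given as deposited, and promoters and UTRs come from separate GRCm38 references. The counting command names 12 libraries; 10 are analysed here.

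Deposited lines hold 15 fields under 16 names, because sponge replicate 3 and 1 scramble library share a field. Each joined number was split where a negative binomial model (dispersion 0.1, each gene's share in the 8 intact libraries) favoured one split over the next by a likelihood ratio of 100 or more, and 51 genes were left out. On 56 pairs of intact libraries joined on purpose, at least 99.9016% of genes were recovered. The replicate number of either scramble library is not certain.

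CPM values, TMM factors and tests were computed here from those counts. edgeR 4.0.16 (R 4.3.3; robust quasi-likelihood, expression filter by group) fitted all 10 libraries together with 6 residual degrees of freedom. Adjusted p-values are Benjamini-Hochberg over 15767 genes, called under 0.05, and SEs were derived from the fold change and its F statistic. Library titles speak of biological replicates and do not say how cultures were separated, so p-values reflect library-to-library spread, which may be technical. The functions were tested on simulated data.

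The 35 genes, the pathway lists and the markers were chosen with earlier results of these data known, so no p is given over a list. Members with values per library were those called, the 6 with the smallest p for overexpression minus mutated control, 3 for each other contrast and the 3 with the highest CPM per kilobase; Cxcl10 was added after its values were seen. Named pathway genes were 7 fixed ones, of which 1 is not reported here, those called and the 3 with the smallest p. Alternatives were DESeq2 1.42.0, limma-voom (limma 3.58.1), RLE factors, 2 other filters, fits of fewer libraries, a replicate block, a score pseudocount of 0.25 CPM and a relaxed promoter core; a length correction and a fit without 2 libraries were added after seeing the data. Of the 35 genes, 11 share exonic bases with another gene, on the same or the opposite strand. Reads within the shared bases cannot be told apart by position, and strand was not used in counting. Intervals for 0 counts cover counting error only.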

Additional observations from a re-analysis of the deposited data

How the results depend on the processing

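The medians of the 35 genes kept their direction under every alternative run, and limma-voom, RLE factors and the filter at 1 CPM gave the same counts of called genes among the 35. DESeq2 called 4 of the 35 for overexpression minus mutated control, 4 for mutated control minus scramble, 2 for overexpression minus scramble, 2 for the difference of effects and 7 for any difference among groups, with 500, 90, 234, 48 and 849 of all genes called in these tests. Without an expression filter edgeR called 8, 3, 1, 4 and 11 in the same order, with 1390, 149, 747, 331 and 1707 of all genes, against 85, 4, 7, 0 and 66 with the filter. With only the groups compared, it called 0 for overexpression minus mutated control and 22 for mutated control minus scramble, with 34 and 574 of all genes. Without both joined libraries, it called 0 for overexpression minus mutated control. The length correction, added after seeing the data, called 3 for overexpression minus mutated control, 2 for overexpression minus scramble and 6 for any difference, with 295, 45 and 345 of all genes. Without overexpression replicate 1 and sponge replicate 3, a fit also added later, it called 8, 13 for mutated control minus scramble, 5 for overexpression minus scramble, 7 for the difference and 20 for any difference, with 756, 271, 376, 271 and 1407 of all genes. The cause of these shifts was not tested. Same-numbered overexpression and sponge libraries did not deviate together (r = −0.69, −0.11 and −0.84 for replicates 1, 2 and 3 over 10320 genes). Same-numbered pairs with the mutated control, by title number, had r from −0.038 to 0.10. The trend with gene length enters these deviations, so they cannot show whether the numbers pair libraries. In 4 versions of the replicate block, 0 of the 35 and 0 of all genes were called for overexpression minus mutated control, against 1 and 85 without it.

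With each library left out in turn, edgeR called 0 to 3 of the 35 for overexpression minus mutated control (most without sponge replicate 3), 0 to 2 for mutated control minus scramble and for any difference (most without overexpression replicate 1), and 0 in the other 3 tests. Where 1 library of a control was left, it was assumed to vary like the other groups. Counts of all genes called are not given for these fits or for the fit without both joined libraries. Their counts of called genes among the 35 are therefore not read as a result about the 35. Medians ranged from 0.12 to 0.18, from −0.25 to −0.18 for mutated control minus scramble, from −0.086 to −0.043 for sponge minus scramble and from −0.097 to −0.082 for overexpression minus scramble. The promoter core was in 64% of 25 genes in its relaxed form (GAAANNGAA), against 9.76% of all genes. For single genes and all-gene counts, 2560 repeats kept their call and value, 116 moved by more than the SE or 1.5 times, 85 passed the threshold only under the alternative, 36 lost it and none of those called turned its sign. For the other results, the promoter core among them, 193 repeats stayed the same and 39 moved. Depth limits Cxcl9 and Ifnb1, both under 1 CPM in every library.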
